A study of Mus musculus with 21 samples.

Results

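Transcripts of 31 mouse genes for cholesterol synthesis, its control, uptake, efflux and storage were measured in sorted cells. The cells were sorted as neural stem and progenitor cells from the forebrain and the dentate gyrus. The genes were taken by symbol from a list of 31, out of 24322 symbols in each expression table. All 31 reached at least 1 FPKM (mapped fragments corrected for the length of the transcript and the size of the library) in at least 3 libraries and were kept. Of these, 7 carry the mevalonate steps (Acat2, Hmgcs1, Mvk, Pmvk, Mvd, Idi1 and Fdps) and 11 the sterol steps (Fdft1, Sqle, Lss, Cyp51, Tm7sf2, Msmo1, Nsdhl, Hsd17b7, Ebp, Sc5d and Dhcr7). A further 5 form the SREBP control system (Srebf1, Srebf2, Scap, Insig1 and Insig2), and 8 act in efflux, transport and storage (Abca1, Abcg1, Apoe, Lrp1, Npc1, Npc2, Soat1 and Stard4).

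Brain cells make most of their own cholesterol, because lipoproteins of the blood barely cross the blood-brain barrier. When membrane sterol is low, SCAP escorts the membrane-bound factor SREBP2 (gene Srebf2) from the endoplasmic reticulum to the Golgi, where it is cut and freed to activate genes of the synthesis pathway. When sterol is high, INSIG proteins hold SCAP back, and Insig1 is itself a target of SREBP, so its transcript is often read beside those of the enzymes. Excess sterol is exported by the ABC transporters ABCA1 and ABCG1 onto apolipoprotein E, which in brain comes mainly from astrocytes, and is taken up by other cells through receptors such as LRP1. Both transporters are targets of the sterol-sensing LXR receptors.

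All cells came from C57BL/6 mice carrying Nestin-EGFP, a transgene in which regulatory sequence of the stem cell gene Nestin drives green fluorescent protein, and were collected by flow cytometry as EGFP positive. Pregnant mothers were given either methylcellulose, the vehicle, or valproic acid (VPA, an antiepileptic drug and histone deacetylase inhibitor) by mouth at 300 mg/kg/day on embryonic days 12, 13 and 14. Control and VPA offspring were sampled at embryonic day 15 (E15, forebrain), at postnatal day 5 (P5, dentate gyrus) and at 12 weeks (dentate gyrus). A seventh group, also of 12 weeks, had been exposed to VPA and was given voluntary running. No running group without VPA was included, and age and brain region cannot be told apart between E15 and P5. Each of the 7 groups had 3 libraries (n = 3), 21 in all. Whether these were separate animals, litters or pools was not stated, so p-values measure only the spread between the libraries, which may be technical.

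The adult libraries were noisier than the younger ones. The median SD of a member's log2(FPKM + 1) among replicates was 0.08 to 0.10 in the groups at E15 and P5 and 0.30 to 0.39 in those at 12 weeks. Libraries of 12 weeks had 12019 to 15210 genes above 0, fewer than the 16116 to 16734 of E15 and the 17251 to 17601 of P5. Read counts were not used here, so the depth of each library is unknown. All 10 listed markers of neural stem and progenitor cells were detected in every group. So were all listed markers of newborn neurons, mature neurons, oligodendrocyte precursors and pericytes. In E15 controls newborn neuron markers summed to 1781 to 2228 FPKM, against 538 to 650 for the stem list. At P5 they summed to 1175 to 1322 against 2596 to 3003. In controls of 12 weeks oligodendrocyte precursor markers summed to 843 to 1274 and pericyte markers to 918 to 2083, against 884 to 1732. Mature neuron markers summed to 120 to 221 FPKM over all controls. A library that stood apart was replicate 3 of the VPA group at E15, with a summed level of 11254 FPKM over 9 choroid plexus markers, against 14.2 to 158 in the other 5 libraries of that age. Apoe is affected by it, and its comparison of VPA with control at E15 is given with and without that library. The age comparisons of controls were fitted over all 21 libraries, so this library also enters the SE of Apoe there. In fits of only the compared controls, which leave it out, Apoe still passed from E15 to P5 and still did not from P5 to 12 weeks. At 12 weeks, control replicate 1 had 356 FPKM of microglia markers, against 31.1 and 75.2 in the other controls, and running replicates 2 and 3 had 439 and 699 FPKM of choroid plexus markers, against 57.3 in replicate 1. Only 2 values of the 31 genes lay under 1 FPKM, Tm7sf2 listed at 0 in running replicate 3 and Stard4 at 0.011 in VPA replicate 3 at 12 weeks.

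The promoters of Idi1, Insig1 and Hmgcs1 are shown because Idi1 and Insig1 were the members that passed the test between VPA and control at P5, and Hmgcs1 was the enzyme with the highest mean level at each age. Each is the 250 bases before a RefSeq transcript start in GRCm38.p6, 5′ to 3′ on the plus strand, at chr13:8885356-8885605 for Idi1, chr5:28071162-28071411 for Insig1 and chr13:119690101-119690350 for Hmgcs1. Capitals mark ATTGG, which is the NF-Y box CCAAT read on the opposite strand, and TCACCCCAC, a match to a sterol regulatory element.
Idi1: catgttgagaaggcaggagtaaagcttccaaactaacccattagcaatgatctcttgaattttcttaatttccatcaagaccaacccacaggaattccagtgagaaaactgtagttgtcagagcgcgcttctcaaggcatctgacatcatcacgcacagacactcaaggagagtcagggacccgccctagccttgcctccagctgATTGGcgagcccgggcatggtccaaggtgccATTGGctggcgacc
Insig1: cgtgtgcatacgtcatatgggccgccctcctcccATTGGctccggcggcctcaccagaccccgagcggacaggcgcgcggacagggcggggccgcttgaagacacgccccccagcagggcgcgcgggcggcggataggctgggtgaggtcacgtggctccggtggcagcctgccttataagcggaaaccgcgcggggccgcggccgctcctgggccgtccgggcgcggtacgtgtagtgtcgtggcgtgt
Hmgcs1: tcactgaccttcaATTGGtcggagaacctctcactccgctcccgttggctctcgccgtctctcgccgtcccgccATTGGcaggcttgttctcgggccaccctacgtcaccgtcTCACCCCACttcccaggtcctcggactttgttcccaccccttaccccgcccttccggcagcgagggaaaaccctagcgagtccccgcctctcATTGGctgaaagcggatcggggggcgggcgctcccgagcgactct

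SREBP binds sterol regulatory elements together with NF-Y and Sp1, so all 3 motifs were searched on both strands in windows of 300 bases, 250 before and 50 after the start. The table held 25 of the 31 members, in 35 windows. The sterol regulatory element, searched as TCACNCCAC, was found in 1 window, that of Hmgcs1, 137 bases before the start. It lay in 1.242% of all 32851 windows of the table. The NF-Y box CCAAT lay in 21 of the 35 windows, or 60%, against 37.41% of all windows, and 20 of the 25 members had it. The Sp1 box, searched as GGGCGG, lay in 27 of the 35 windows, or 77.1%, against 35.66% of all, in 23 members. The NF-Y boxes shown for Idi1 were 45 and 14 bases before the start, and that of Insig1 was 216 bases before it. None of the capitalised matches overlap, and a match of letters is a description of the window only.

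**Figure D1:**
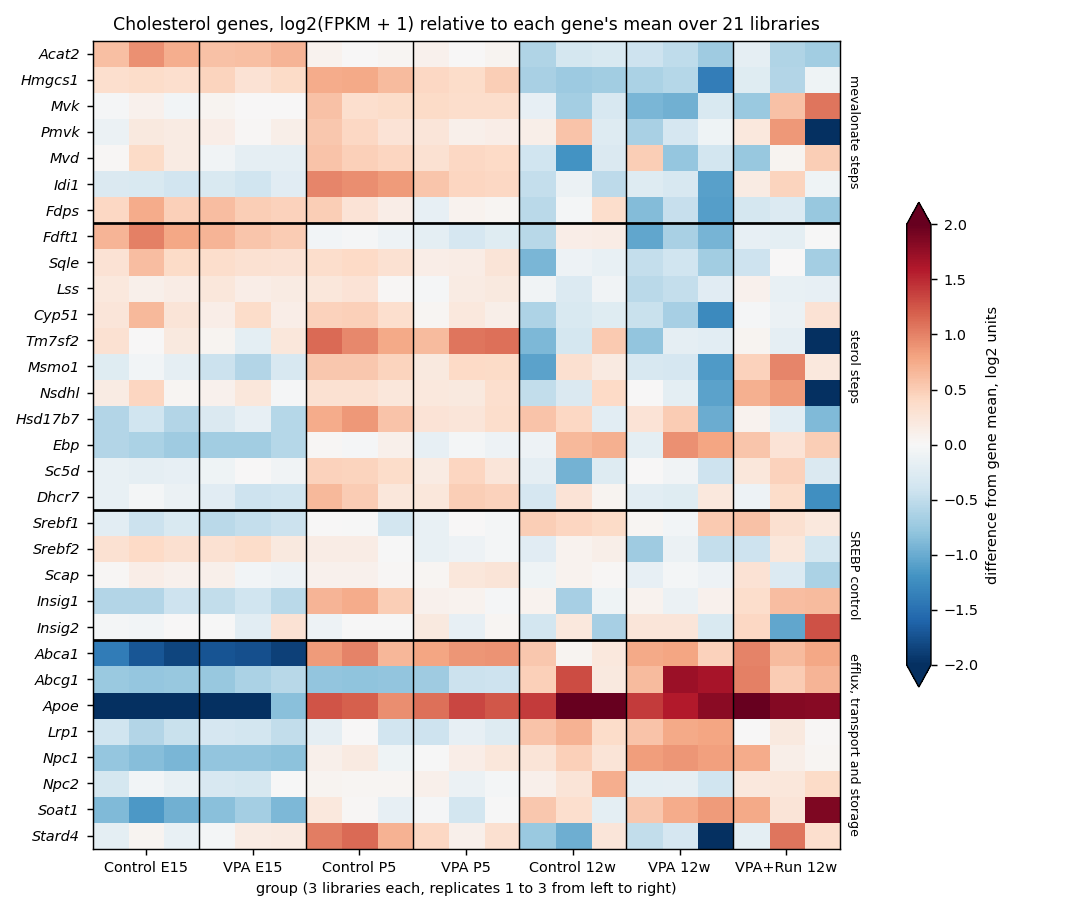
Levels of the 31 genes in the 21 libraries as log2(FPKM + 1), each gene relative to its own mean over all libraries (colour, log2 units, limited to 2 in either direction), with rows ordered by role and columns by group. Synthesis enzymes were highest in the control libraries of P5 for 11 of 18 genes, and Apoe and Abca1 were low in the E15 libraries of both treatments, apart from Apoe in VPA replicate 3.

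Across the control ages, summed transcripts of the enzymes were highest at P5, with overlap to E15, and lowest at 12 weeks, while those of efflux and transport genes were highest at 12 weeks. The 18 enzymes together gave 655 ± 50.2 FPKM (SD, n = 3) in E15 controls. The sum was 732 ± 40.0 in those of P5, and 447 ± 65.7 in those of 12 weeks. The 7 transport genes other than Apoe summed to 124 ± 1.44, 190.4 ± 15.8 and 242 ± 10.2 FPKM at the same ages. Of all 7 groups, control P5 had the highest mean for 11 of 18 enzymes, and VPA at 12 weeks had the lowest for 12 of 18. In such bulk samples, fewer cells of a type and less RNA per cell cannot be told apart.

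**Figure D2:**
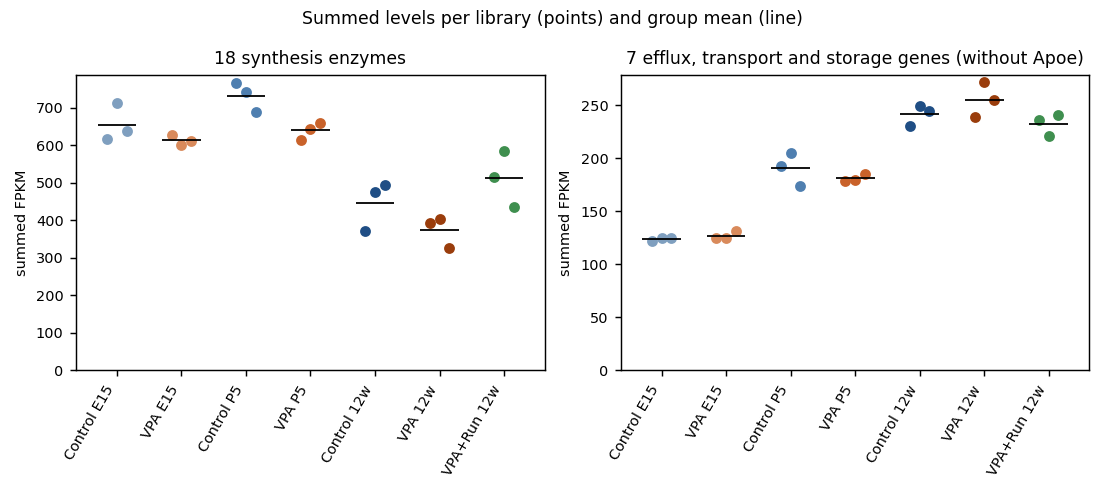
Summed FPKM of the 18 synthesis enzymes (left) and of 7 efflux, transport and storage genes without Apoe (right), with a point per library and a line at the mean of each group. The enzyme sums of VPA P5 (614 to 659) lay below those of control P5 (688 to 766), and the transport sums were lowest in the E15 groups (122 to 131) and highest in those of 12 weeks (221 to 272).

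From E15 to P5 in controls, 8 members rose and 2 fell among all 14662 genes tested with limma, where 14.4% of all genes rose and 6.33% fell. Fold changes are on the log2(FPKM + 1) scale, which understates those of low genes, and means called higher or lower are means on that scale. The median log2 fold change was 0.35 over the 18 enzymes and 0.97 over the 8 transport genes, against 0.145 over all genes tested. Members whose 3 control libraries at P5 all lay above the 3 at E15 numbered 19, or 61.3%, against 44.3% of all genes, and 4 lay wholly below, or 12.9%, against 22.1%. Means were higher at P5 for 23 of 31 members and 62.4% of all genes. With median-of-ratios scaling the median of all genes was 0.047 in place of 0.145, and the share of called genes that rose was 58.1% in place of 69.5%. The direction of every call of a member held under that scaling, but Sc5d was no longer past the threshold (adjusted p = 0.101).

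Among the enzymes of the mevalonate steps, Idi1 rose and Acat2 fell. Idi1, which makes the reactive isomer of the isoprene unit (chromosome 13, 8885501 to 8892451), was at 11.5, 11.3 and 10.8 FPKM in the E15 controls and 29.0, 28.0 and 26.7 at P5. Its groups did not overlap, and the log2 fold change was 1.24 ± 0.19 (SE, adjusted p = 0.000102). Acat2, a thiolase that joins acetyl-CoA units at the start of the pathway, had 77.7, 96.2 and 84.3 FPKM at E15 and 53.3, 50.9 and 52.2 at P5, a log2 fold change of -0.71 ± 0.13 (adjusted p = 0.000491). It was thus high where Idi1 was low. Hmgcs1, which builds HMG-CoA, had the highest mean of the enzymes at both ages, 114 ± 1.09 FPKM at E15 and 147 ± 6.71 at P5. Its log2 fold change of 0.37 did not pass the test over all libraries (adjusted p = 0.128). In a fit of only the control libraries compared, Hmgcs1, Mvk, Pmvk and Mvd did pass, as members that rose.

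Among the sterol steps, Hsd17b7 and Sc5d rose and Fdft1 fell. Hsd17b7, a ketosteroid reductase of the demethylation steps, went from 4.58, 5.40 and 4.60 FPKM at E15 to 13.1, 14.4 and 11.5 at P5, a log2 fold change of 1.25 ± 0.33 (adjusted p = 0.00942). Sc5d, which introduces a double bond late in the pathway, had 22.6, 22.2 and 22.3 FPKM at E15 and 35.2, 34.5 and 32.8 at P5 (0.59 ± 0.19, adjusted p = 0.0382). Both genes had groups that did not overlap. Fdft1, squalene synthase, the committed step towards sterols, went the other way, from 45.5, 56.9 and 48.3 FPKM to 26.8, 27.5 and 25.9 (-0.88 ± 0.16, adjusted p = 0.000473). Fdft1 overlaps Ctsb on the opposite strand, and without a stated strand reads of the pair cannot be told apart. In a fit of only the control libraries compared, Tm7sf2, Msmo1, Ebp and Dhcr7 passed too, as members that rose.

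In the control system, Insig1 rose and Srebf2 did not pass the test. Insig1, the sterol-regulated anchor of SCAP (chromosome 5, 28071363 to 28078662), was at 27.1, 27.1 and 30.8 FPKM in E15 controls and at 66.6, 70.0 and 58.5 at P5. The groups were far apart, with a log2 fold change of 1.17 ± 0.15 (adjusted p = 1.3e-05). Srebf2 (chromosome 15, 82147181 to 82205379) had 72.8, 77.7 and 74.2 FPKM at E15 and 65.4, 65.8 and 58.4 at P5. Its P5 values all lay below those of E15, by a log2 fold change of -0.24 ± 0.16 (adjusted p = 0.343). In a fit of only these 6 control libraries it did pass (adjusted p = 0.016), as a member that fell. Srebf2 holds Mir33 and Srebf1 holds Mir6921 and Mir6922, and both overlap other genes, so reads could be shared there.

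The steepest differences between E15 and P5 were in export. Apoe, the main lipid carrier of brain (chromosome 7, 19696109 to 19699188), was at 15.7, 15.3 and 15.5 FPKM in E15 controls and 921, 879.7 and 736 at P5, a 54.6-fold difference of the means and a log2 fold change of 5.67 ± 0.68 (adjusted p = 6.52e-06). Abca1, the transporter that lipidates it (chromosome 4, 53030787 to 53159895), went from 5.23, 4.01 and 3.64 FPKM to 28.9, 32.0 and 25.1, which is 6.68-fold (2.49 ± 0.16, adjusted p = 2.93e-09). Npc1, which exports cholesterol from lysosomes, and Soat1, which esterifies it for storage, rose as well, by 0.91 ± 0.15 (adjusted p = 0.000212) and 1.03 ± 0.30 (adjusted p = 0.0203). Abcg1, in contrast, was at 3.70 to 3.93 FPKM in all 6 of these libraries.

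Markers of other cell types moved with age as well. The summed level of 8 astrocyte markers was 30.1 to 33.2 FPKM in E15 controls and 405 to 487 at P5, with 7 of 8 past the test and Gjb6 at 0 in every E15 library. The 5 markers of oligodendrocyte precursors all rose, and the 10 stem and progenitor markers went from a sum of 538 to 650 to a sum of 2596 to 3003. Most of that gap lay in Fabp7 (240 to 294 FPKM at E15, 1706 to 1982 at P5) and Slc1a3 (16.4 to 21.6, 295 to 347). Sox2, Sox9, Hes5, Hopx and Notch1 were also higher at P5, Vim and Pax6 overlapped, and Nes was lower (14.2 to 17.8, 11.5 to 13.4). The sum of newborn neuron markers went down, from 1781 to 2228 FPKM to 1175 to 1322. Within that list Neurod1 and Prox1 were higher at P5 and Dcx, Tubb3 and Sox11 lower. The part of these cells in the changes of Apoe, Abca1 and the enzymes was not tested. Leaving out a library ended the call of Sc5d in each of 6 cases (adjusted p = 0.0736 to 0.111) and of Soat1 in 4, those without control P5 replicates 1 and 2 and control E15 replicates 2 and 3 (adjusted p = 0.0527 to 0.0855).

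From P5 to 12 weeks, 7 of the 18 synthesis enzymes fell in the controls. Lower means at 12 weeks were seen for 17 of 18 enzymes, with Ebp the exception, and none of the 18 rose, while 46.3% of all genes had higher means. The median log2 fold change of the enzymes was -0.58, against -0.04 over all genes tested. Over all 31 members 9 fell, where 5.35% of all genes fell, and 3 rose, where 7.26% rose. Libraries did not overlap for 14 members that were lower, or 45.2%, against 19.1% of all genes.

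Among the enzymes past the threshold, the larger falls were in the mevalonate steps. Hmgcs1 (chromosome 13, 119690379 to 119708260) was at 151, 152 and 139.7 FPKM in P5 controls and at 56.9, 53.5 and 55.0 at 12 weeks, a log2 fold change of -1.40 ± 0.16 (adjusted p = 1.48e-05). Idi1 fell to 9.96, 13.1 and 9.60 FPKM, values that spanned those of E15 (-1.29 ± 0.19, adjusted p = 0.000202). Mvd, which makes isopentenyl pyrophosphate, fell by 1.11 (adjusted p = 0.0229), and Acat2 fell by 0.46 (adjusted p = 0.0238) on the log2 scale. Hmgcs1 and Idi1 kept their calls when each of the 6 libraries was left out in turn.

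In the sterol steps, Sc5d, Cyp51 and Sqle fell. Sc5d had 22.3, 12.6 and 20.9 FPKM at 12 weeks, below all its P5 values (-0.88 ± 0.19, adjusted p = 0.00525). Cyp51, the lanosterol demethylase, went from 45.0, 45.2 and 40.9 FPKM at P5 to 20.6, 25.9 and 27.1 (-0.82 ± 0.18, adjusted p = 0.00604). Again the groups did not overlap, though Cyp51 shares its locus with Akap9 on the opposite strand. Sqle, squalene epoxidase, a rate-limiting enzyme, fell by 0.74 (adjusted p = 0.013). Fdft1, which had fallen by P5, was at 18.8, 30.7 and 30.9 FPKM at 12 weeks and did not differ past the threshold from P5 (-0.03 ± 0.16, adjusted p = 0.936).

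Control and transport genes split. Insig1 fell to 43.4, 25.7 and 39.0 FPKM (-0.86 ± 0.15, adjusted p = 0.000792), and Srebf1, whose main product drives fatty acid synthesis, rose from 25.3, 24.8 and 19.1 to 35.8, 34.0 and 32.9 (0.56 ± 0.15, adjusted p = 0.0196). Srebf2, at 50.03, 61.9 and 64.1 FPKM, overlapped its P5 values (-0.11 ± 0.16, adjusted p = 0.721). Its groups were thus not separated between P5 and 12 weeks, unlike those of Insig1 and Srebf1.

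Abcg1 rose from 3.79, 3.70 and 3.77 FPKM to 10.5, 19.4 and 8.43 (1.45 ± 0.28, adjusted p = 0.00214). Lrp1, the endocytic receptor for Apoe particles (chromosome 10, 127538161 to 127621148), rose from 52.9, 60.7 and 46.1 to 89.8, 98.1 and 78.3 (0.73 ± 0.12, adjusted p = 0.000406). Abca1 fell to 23.1, 16.2 and 18.1 FPKM (-0.57 ± 0.16, adjusted p = 0.0259). In a fit of only the compared controls Abca1 (adjusted p = 0.0692) and Sqle (adjusted p = 0.072) did not pass, and with small RNA genes left out Srebf1 did not (adjusted p = 0.0506). Apoe, at 1012, 2452 and 1833 FPKM at 12 weeks, lay above all its P5 values without passing the test (0.98 ± 0.68, adjusted p = 0.415).

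Endothelial markers went from a sum of 2.29 to 4.72 FPKM at P5 to 99.3 to 259 at 12 weeks in the controls, with 5 of 5 past the test. Pericyte markers went from 87.2 to 104 to a sum of 918 to 2083, also 5 of 5, and oligodendrocyte precursor markers from 357 to 421 to a sum of 843 to 1274, again 5 of 5. Of 6 markers of dividing cells, all 6 were lower, and Mki67 fell. Their part in the differences of the members was not tested. Without control 12w replicate 2 the calls of Abca1 (adjusted p = 0.108) and Mvd (adjusted p = 0.12) were lost, without replicate 3 that of Abca1 (0.0746), and without replicate 1 that of Acat2 (0.0775). Leaving out control P5 replicate 1, 2 or 3 ended calls among Abca1, Acat2, Mvd, Sqle and Srebf1 (adjusted p = 0.0506 to 0.128), with 5 members still lower without replicate 2.

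**Figure D3:**
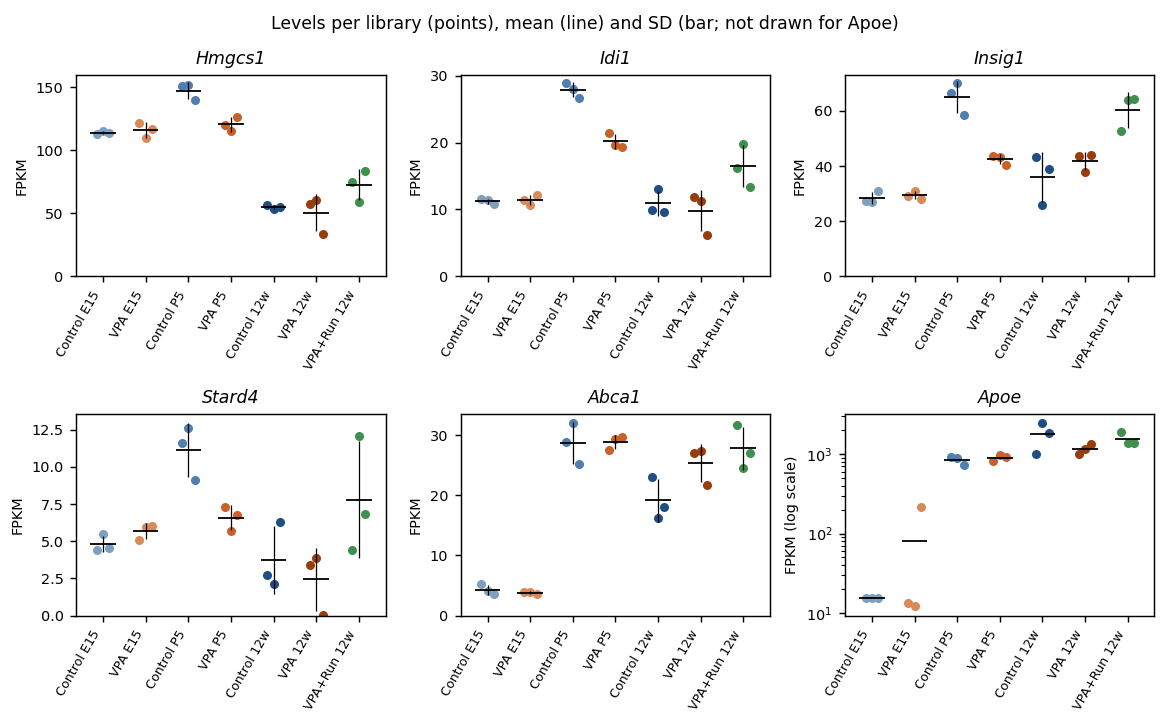
FPKM per library (points) with the mean (line) and SD (bar, not drawn for Apoe) for 6 members in the 7 groups. The axis of Apoe is logarithmic. Idi1 and Insig1 had P5 values in VPA libraries (19.4 to 21.4 and 40.5 to 43.8) below those of the controls (26.7 to 29.0 and 58.5 to 70.0), and no such gap was present at E15.

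At P5, most synthesis transcripts were lower after prenatal VPA, and few passed the test. Of the 18 enzymes, 17 had lower means in VPA than in control libraries, with Acat2 at a log2 fold change of 0.00, and the 3 VPA libraries all lay below the 3 controls for 11 of 18, or 61.1%, where 15.6% of all 13328 genes tested did so. Insig1 and Idi1 fell past the threshold, which is 2 of 31 members lower against 1.34% of all genes. Both were also called in the 2 age comparisons of controls. The control P5 libraries enter all of these comparisons, so the results are not independent. No member rose, where 0.9% of all genes did, and 2.24% of all genes passed in either direction. An unadjusted p under 0.05 was seen for 13 members, or 41.9%, against 24% of all genes, and 49.1% of all genes had higher means. The median log2 fold change was -0.25 over the mevalonate steps, -0.15 over the sterol steps and -0.02 over the transport genes, against -0.004 over all genes. The transport median had no stable sign, at -0.07 to 0.05 when a library was left out.

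Insig1 was at 66.6, 70.0 and 58.5 FPKM in the controls and at 43.8, 43.2 and 40.5 in the VPA libraries. The VPA libraries were close together and 34.7% lower in the mean, with a log2 fold change of -0.60 ± 0.07 (adjusted p = 0.0195). Idi1 was at 29.0, 28.0 and 26.7 FPKM in the controls and at 21.4, 19.7 and 19.4 after VPA. Its groups did not overlap either, and the mean was 27.7% lower (-0.45 ± 0.06, adjusted p = 0.0239).

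Just outside the threshold lay 4 genes, named after their values were seen. Stard4, a soluble protein that carries sterol between membranes and a known SREBP target, had 11.6, 12.6 and 9.10 FPKM in the controls and 7.31, 5.69 and 6.76 after VPA (-0.67 ± 0.13, adjusted p = 0.0549). Hmgcs1 had 151, 152 and 139.7 FPKM in the controls and 119.9, 115 and 127 after VPA (-0.29 ± 0.06, adjusted p = 0.0563). Hsd17b7 had 13.1, 14.4 and 11.5 against 9.17, 8.90 and 9.72 (-0.44 ± 0.09, adjusted p = 0.0562). For all of these, and for Cyp51 (-0.30 ± 0.06, adjusted p = 0.0612), every VPA library was below every control library.

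Regulators other than Insig1, and the exporters, did not pass the test. Srebf2 had 65.4, 65.8 and 58.4 FPKM in the controls and 53.2, 54.9 and 57.6 after VPA, with every VPA library below every control by a small margin (-0.19 ± 0.06, adjusted p = 0.128). Srebf1, Scap and Insig2 had log2 fold changes of 0.06 to 0.10 and overlapping groups. Of the 8 transport genes 4 had higher and 4 lower means. Abcg1 (3.79, 3.70 and 3.77 against 4.04, 5.14 and 5.19 FPKM) was the only member whose VPA libraries all lay above the controls, where 13.8% of all genes did so. Apoe was at 921, 879.7 and 736 FPKM in the controls and 822, 968 and 909.7 after VPA, which overlap (0.09 ± 0.11, adjusted p = 0.65).

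The sets of libraries also differed in markers of cell identity at P5. All 10 stem and progenitor markers had lower means after VPA, with Sox2 and Sox9 past the test, and their sum was 2506 to 2586 FPKM against 2596 to 3003 in controls. All 6 markers of dividing cells were lower, with a sum of 142 to 177 against 188 to 196. Markers of pericytes were higher in 5 of 5 (136 to 253 against 87.2 to 104 FPKM), of fibroblasts in 5 of 5 (14.1 to 18.5 against 5.23 to 8.38) and of microglia in 7 of 7 tested (30.4 to 46.2 against 18.4 to 25.9). Erythroid markers summed to 82.8 to 186 FPKM after VPA and 501 to 690.0 in controls. Their part in the lower enzyme levels was not tested.

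The calls at P5 were close to the threshold. Without control P5 replicate 1 or 2 or VPA P5 replicate 2, neither Insig1 (adjusted p = 0.0781, 0.091 and 0.0803) nor Idi1 (0.109, 0.112 and 0.0909) passed, and Idi1 was also lost without VPA P5 replicate 3 (0.0698). With no filter on low values neither passed (adjusted p = 0.0551 for both), nor in a fit of all 21 libraries (0.479 for Insig1 and 1 for Idi1). With the replicate number as a block Idi1 was lost (0.053) and Insig1 was kept (0.0362). With small RNA genes left out and the libraries rescaled, Cyp51, Hmgcs1, Hsd17b7 and Stard4 passed too, giving 6 members lower, and the share of higher among all called genes was 52.3% in place of 40.3%. The count of enzymes with lower means was 17 under every other setting tried and 14 to 18 when a library was left out.

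**Figure D4:**
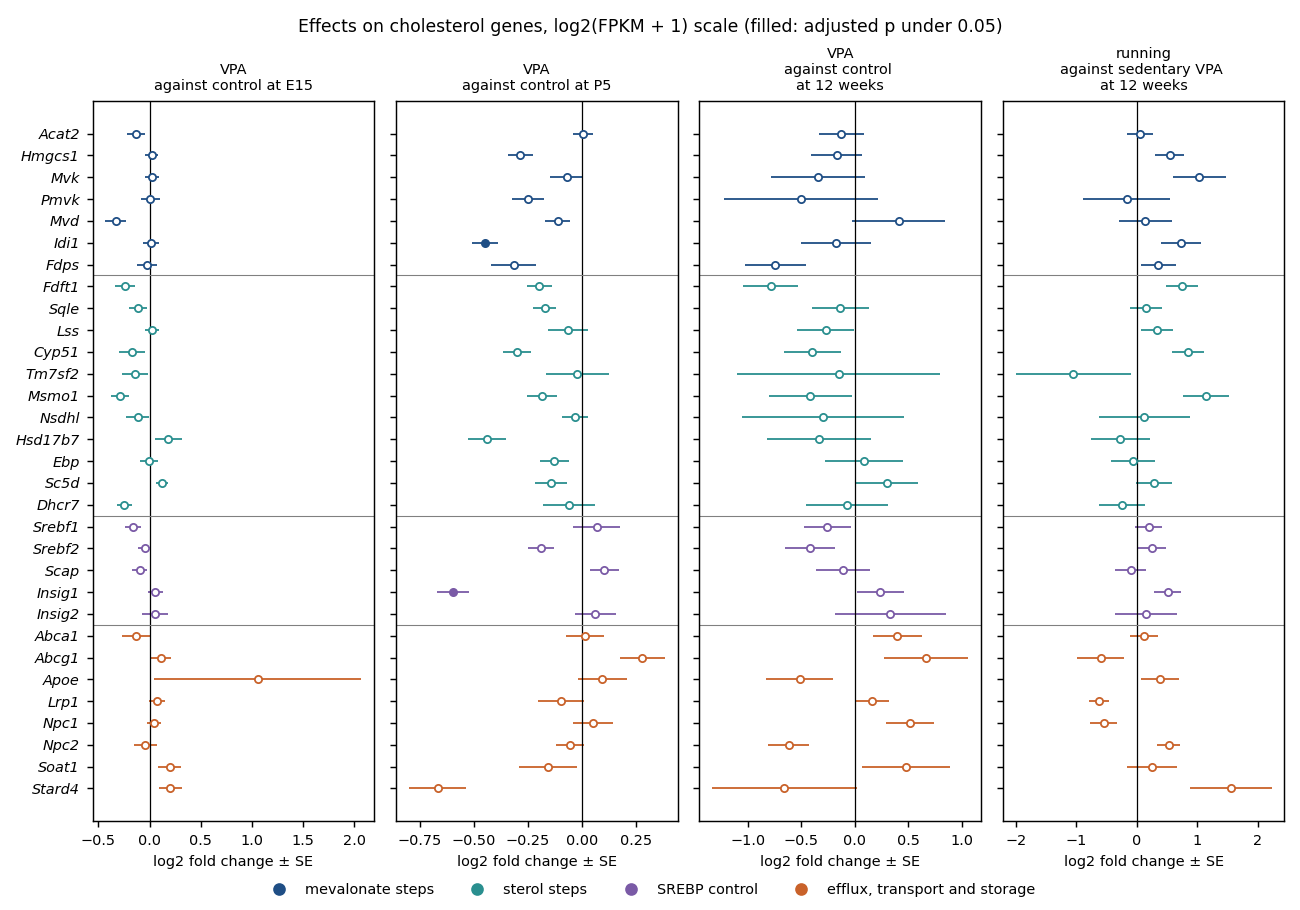
Log2 fold changes with standard errors for the 31 genes, by role (colour), for VPA against control at E15, P5 and 12 weeks and for running against sedentary VPA at 12 weeks. Filled points mark an adjusted p under 0.05, which only Idi1 and Insig1 at P5 had. The horizontal scales differ between panels, and errors at 12 weeks are wider.

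At E15, 1 day after the last dose, no member passed the test between VPA and control in limma, where 0.0405% of all 12345 genes did, and 4 of 31 had an unadjusted p under 0.05 against 10.5% of all genes. Means were higher for 15 members and lower for 16, and 47.4% of all genes had higher means. All 3 VPA libraries lay below the controls for 4 members, or 12.9%, against 9.32% of all genes, and above them for 1, against 8.19%. The median log2 fold change of the 18 enzymes was -0.07 and that of all genes -0.009. Without control E15 replicate 2 the enzyme median was -0.007, and without VPA E15 replicate 2 it was -0.017. Summed newborn neuron markers were 1624 to 1775 FPKM after VPA and 1781 to 2228 in controls, where of single markers only Sox11 did not overlap. Pericyte markers summed to 9.85 to 11.8 and 14.4 to 15.5 FPKM in the same order, with overlap for Pdgfrb and Vtn. The part of such cells in the members' values was not tested.

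The members with the smallest p at E15 were 4 enzymes and Srebf1. Mvd had 21.008, 27.1 and 23.0 FPKM in controls and 19.5, 17.996 and 18.1 after VPA (-0.33 ± 0.10, adjusted p = 0.386). Msmo1, the sterol methyl oxidase, had 37.8, 43.6 and 39.8 against 33.4, 29.6 and 35.7 (-0.29 ± 0.09, adjusted p = 0.393). Dhcr7, the reductase of the last step to cholesterol, had 21.1, 23.0 and 21.7 against 20.0, 17.5 and 17.6, and Fdft1 had 45.5, 56.9 and 48.3 against 45.0, 41.3 and 40.3. These 4 had groups that did not overlap. Srebf1, with 21.6, 18.4 and 20.1 FPKM against 17.0, 17.8 and 18.4, overlapped by a small margin.

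Srebf2 and Insig1, the factor and its feedback gene, did not pass the test at E15. Srebf2 had 72.8, 77.7 and 74.2 FPKM in controls and 73.4, 76.2 and 67.5 after VPA (-0.05 ± 0.07, adjusted p = 0.8). Insig1 had 27.1, 27.1 and 30.8 against 29.2, 31.04 and 28.1 (0.06 ± 0.08, adjusted p = 0.799). The gap of these genes between groups was no larger than the spread within them.

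The direction of Apoe at E15 rested on a single library. It had 15.7, 15.3 and 15.5 FPKM in controls and 13.2, 12.1 and 215 after VPA, and the library with 215 is the one with 11254 FPKM of choroid plexus markers. Choroid plexus epithelium is a known site of Apoe expression, and the part of such cells was not tested. The log2 fold change was 1.06 ± 1.01 (adjusted p = 0.719) with that library and -0.27 without it (adjusted p = 0.343).

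At 12 weeks, no member passed the test between sedentary VPA and control mice, and none of the 13847 genes tested did with limma, 0% called. An unadjusted p under 0.05 was seen for 4 of 31 members and 6.39% of all genes. Means were lower after VPA for 15 of 18 enzymes, with a median log2 fold change of -0.22 against -0.006 over all genes, and 49.3% of all genes had higher means. Only Fdft1 among the enzymes had groups that did not overlap. Over all members 2 lay wholly below the controls, against 7.63% of all genes, and 1 wholly above, against 7.83%. Without VPA 12w replicate 3 the enzyme median was -0.10. Transport genes had higher means in 5 of 8, with a median of 0.28 (0.17 to 0.33 when a library was left out).

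The 5 smallest p at 12 weeks included both lysosomal cholesterol exporters, in opposite directions. Npc2, the soluble carrier that hands sterol to Npc1, had 62.6, 69.2 and 97.1 FPKM in controls and 50.5, 51.4 and 44.0 after VPA (-0.62 ± 0.19, adjusted p = 0.577). Npc1 had 29.4, 34.3 and 29.3 against 44.2, 45.9 and 43.9 (0.52 ± 0.22, adjusted p = 0.765). Neither gene's groups overlapped, and neither passed the test over all genes.

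Fdft1 had 18.8, 30.7 and 30.9 FPKM in controls and 13.1, 17.4 and 14.1 after VPA (-0.78 ± 0.26, adjusted p = 0.619). Fdps, farnesyl pyrophosphate synthase, had 23.8, 34.1 and 44.9 against 18.7, 25.1 and 15.7, which overlap (-0.74 ± 0.29, adjusted p = 0.711). Srebf2 had 50.03, 61.9 and 64.1 against 35.5, 54.2 and 42.2 (-0.42 ± 0.23, adjusted p = 0.817), with overlap as well. Insig1 overlapped, at 43.4, 25.7 and 39.0 FPKM in controls and 43.6, 37.9 and 44.0 after VPA (0.24 ± 0.22, adjusted p = 0.912), and so did Apoe, at 1012, 2452 and 1833 against 1010.2, 1149 and 1341 (-0.52 ± 0.31, adjusted p = 0.828). Without control 12w replicate 1 these differences were 0.39 for Insig1 and -0.87 for Apoe, and without replicate 2 they were 0.02 and -0.23. Control replicate 1, the library with the highest microglia markers, had the lowest Fdft1, Msmo1 and Apoe of the 3 controls, and the part of those cells was not tested.

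Running VPA mice were compared with sedentary VPA mice only. No member passed the test in limma, 0% of all genes did, and an unadjusted p under 0.05 was seen for 10 of 31 members, or 32.3%, against 11.3% of all genes. Running went with higher means in 13 of 18 enzymes, and the median log2 fold change of the enzymes was 0.23 against -0.055 over all genes, of which 45.8% had higher means. The enzyme median was 0.12 without running replicate 2 or VPA 12w replicate 3 and 0.47 without running replicate 3, where 3 enzymes in place of 5 had lower means. The running libraries all lay above the sedentary ones for 9 members, or 29.0%, against 6.98% of all genes, and below them for 2, both of the transport group, or 6.45%, against 8.48%. The sedentary VPA libraries enter both this comparison and that with controls, so the 2 results are not independent.

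Cyp51 and Msmo1 were the enzymes with the smallest p. Cyp51 had 23.6, 20.1 and 12.8 FPKM in sedentary VPA mice and 31.9, 29.7 and 39.8 in runners, next to 20.6, 25.9 and 27.1 in controls (0.84 ± 0.27, adjusted p = 0.29). Msmo1 had 35.7, 35.5 and 20.0 in sedentary and 62.5, 89.5 and 52.4 in running mice, with controls at 20.99, 56.8 and 51.3 (1.15 ± 0.38, adjusted p = 0.306). Fdft1, at 24.6, 24.2 and 27.8 FPKM in runners, lay above the 13.1, 17.4 and 14.1 of sedentary mice (0.75 ± 0.26, adjusted p = 0.315). In all of these the runners and the sedentary mice did not overlap. The controls lay below the runners for Cyp51, overlapped them for Msmo1 and spanned them for Fdft1.

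Insig1 was likewise higher in runners in each library, at 52.8, 63.8 and 64.3 FPKM against 43.6, 37.9 and 44.0 (0.51 ± 0.22, adjusted p = 0.416). Srebf2 had 44.0, 69.0 and 46.0 in runners, overlapping the sedentary 35.5, 54.2 and 42.2 (0.26 ± 0.23, adjusted p = 0.713). Apoe had 1868, 1368 and 1363 FPKM in runners, all above the sedentary values of 1010.2, 1149 and 1341, by a margin that is small beside the spread (0.39 ± 0.31, adjusted p = 0.672). Only Srebf2 of these genes had overlapping groups.

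Lrp1 had the smallest p of all members. It was at 89.5, 103 and 105 FPKM in sedentary VPA mice and 60.7, 69.3 and 61.5 in runners, with controls at 89.8, 98.1 and 78.3 (-0.63 ± 0.16, adjusted p = 0.204). Npc2 had 67.7, 68.2 and 75.7 in runners against 50.5, 51.4 and 44.0 (0.53 ± 0.19, adjusted p = 0.344). The runners lay outside the range of the sedentary mice for both genes.

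Markers shifted with the adult groups too. Oligodendrocyte precursor markers summed to 843 to 1274 FPKM in controls, 1354 to 2399 in sedentary VPA and 726 to 906 in running mice, with 5 of 5 higher after VPA and 5 of 5 lower with running. Markers of dividing cells summed to 125 to 199, 114 to 152 and 180 to 221, and those of astrocytes to 456 to 800, 400 to 536 and 626 to 816 FPKM in the same order. The astrocyte markers did not all share a direction. Slc1a2 (130 to 157, 89.3 to 111 and 177 to 225) went with the sum, and S100b (47.4 to 79.1, 101 to 125 and 25.2 to 76.4) went the other way. Stem and progenitor markers summed to 884 to 1732, 864 to 1044 and 1319 to 1836 FPKM, so the sums of runners lay above those of sedentary VPA mice. Of single markers of that list, Slc1a3 (523 to 651 against 192 to 243 FPKM) and Hopx (172 to 306 against 43.1 to 95.4) did so too. The others, among them Nes, Sox9, Hes5 and Notch1, overlapped between runners and sedentary VPA mice. Sedentary VPA mice lay below controls in newborn neuron markers (590 to 743 against 942 to 1069) and fibroblast markers (4.05 to 13.5 against 17.3 to 40.0). None of these markers passed the test at 12 weeks, and their part in the members' values was not tested. Running replicate 3 had the largest share of small RNA genes of all libraries, 27.7% of its summed FPKM, and its values of Pmvk (3.97 FPKM) and Nsdhl (2.20 FPKM) were far below those of the other runners.

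Whether the effect of VPA on a member differed between ages was tested as an interaction over all 21 libraries. No member passed, where 0.0955% of all genes did from E15 to P5 (0.0136% with a higher and 0.0818% with a lower effect) and 0.389% from P5 to 12 weeks. The difference of effects from E15 to P5 was above 0 for 13 members and for 50.8% of all genes. An unadjusted p under 0.05 was seen for 1 member and 1.93% of all genes in the former and for 4 members and 10.5% of all genes in the latter. Insig1 had a difference of effects of -0.65 ± 0.21 (adjusted p = 1) from E15 to P5 and of 0.84 ± 0.21 (adjusted p = 0.105) from P5 to 12 weeks. In a fit of only the E15 and P5 libraries Insig1 (adjusted p = 0.0214) and Idi1 (-0.47, adjusted p = 0.036) did pass, so the call depends on which libraries enter the fit. That fit also tested 13722 genes in place of 14662, and the cause of the change was not tested. From P5 to 12 weeks Insig1 passed without the running group (adjusted p = 0.041) and without control 12w replicate 1 (adjusted p = 0.0226), where Fdft1 passed as well (-0.81, adjusted p = 0.0269).

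Fatty acid genes driven by SREBP1 were examined as a neighbouring branch. From E15 to P5 in controls, 8 of 12 rose and 1 fell, where 14.4% of all genes rose and 6.33% fell, and the median log2 fold change was 0.69 against 0.145 over all genes. The largest rises were in Scd1 (1.64 ± 0.35, adjusted p = 0.00203), a desaturase, and Elovl5 (1.24 ± 0.12, adjusted p = 4.13e-07), an elongase of long fatty acids, while Acly, which supplies acetyl-CoA to both branches, fell (-0.37 ± 0.10, adjusted p = 0.00962). From P5 to 12 weeks all 12 had lower means, where 46.3% of all genes had higher ones, and 3 fell, where 5.35% of all genes did. Among the 3 were Gpam (-0.91 ± 0.16, adjusted p = 0.000731) and Acss2 (-0.79 ± 0.25, adjusted p = 0.044). With VPA at P5 none of the 12 passed, 8 had lower means, and the median was -0.03, against -0.16 over the 18 cholesterol enzymes. With running 10 of 12 had higher means, a median of 0.18, and again none passed.

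Of other regulators and sterol genes, 16 tested of 17 listed, only Nfya passed with VPA at P5, where 2.24% of all genes passed and 1.34% fell. Nfya, a subunit of the CCAAT-binding factor NF-Y, fell from 34.7 ± 0.983 to 25.4 ± 2.27 FPKM (SD, n = 3; -0.44 ± 0.07, adjusted p = 0.0365). From E15 to P5 in controls, the genes that rose included Tmem97, a sterol-regulated binding partner of NPC1 (0.88 ± 0.23, adjusted p = 0.00939), and Sp1 (0.65 ± 0.14, adjusted p = 0.00252), and Nfyb fell (-0.71 ± 0.13, adjusted p = 0.000682). Of all genes 14.4% rose and 6.33% fell from E15 to P5. None of the 16 passed from P5 to 12 weeks, where 12.6% of all genes did.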

How the data were processed

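Per the labels' protocols, polyadenylated RNA of sorted cells was isolated with magnetic beads and sequenced on a HiSeq machine. The submitters' processing notes name mm10 as the build and Cuffdiff, Cufflinks, Bowtie2 and TopHat as tools. Their versions and roles are not given in the sources used here. As gene values, the authors deposited FPKM values per gene symbol and library. The unit is named in the headers of the tables of 12 weeks and was inferred for E15 and P5 from the same genes and similar column sums. Strand was not stated, so antisense and overlapping genes can share reads. FPKM keeps no read counts, so precision was judged from replicates.

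Values were analysed as log2(FPKM + 1) with limma 3.58.1 (R 4.3.3, eBayes with a trend), for genes that reached 1 FPKM in 3 or more of the libraries fitted. P-values were adjusted by Benjamini-Hochberg over all genes tested, with a threshold of 0.05. VPA was compared with control over 6 libraries at E15 and at P5 and over 9 at 12 weeks, where running shared the fit. Ages and interactions used all 21 libraries. Coordinates are of mm10 (GENCODE vM21), in which each of the 31 symbols matched a single gene, and promoters are RefSeq's, GRCm38.p6. The members and lists were chosen with earlier results of these data known.

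Values per library are given for members past the threshold for VPA or running, for up to 2 per role and direction past it between control ages, for Srebf2, Insig1 and Apoe, and for the 5 smallest p where no member passed. Replicates with the same number at E15 deviated together weakly (r = 0.126, 0.115 and 0.228 over genes). Whether the numbers mark pairs cannot be told from these values, and the main fits held no replicate block. A replicate block moved the genes called at E15 from 5 to 4 and changed no call of a member there. Alternatives changed the pseudocount, filter, scaling, small RNA genes, trend, block, libraries in the fit and each library in turn. No sample column was left unused, and no libraries were duplicates.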

Additional observations from a re-analysis of the deposited data

How the results depend on the processing

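Medians of the enzymes and of the transport genes moved by less than 1 SD in each of 254 recomputed values. That SD was taken over the log2 fold changes of the genes in each set, so it does not measure the spread between replicates. Several medians moved by over 1.5 times without a library, as given beside them. Other results moved with the genes and libraries in the fit. For VPA at P5 (2 members lower, 298 genes called), no filter gave 0 members and 36 genes, small RNA genes left out 6 and 755, a replicate block 1 and 70 (Idi1 lost, adjusted p = 0.053), and a fit of all 21 libraries 0 and 15. Replicates with the same number were less correlated at P5 (r = 0.0943, 0.0441 and 0.0132) than at E15. At 12 weeks r was -0.0178, -0.0715 and -0.0326 for VPA with control, and 0.000715, -0.00761 and -0.00361 for running with sedentary VPA. The block changed no other call of a member. Leaving out a library gave 0 to 6 members lower and 18 to 543 genes at P5.

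At E15 the 5 genes called became 3 with no filter, 0 with small RNA genes left out and 3 with all 21 libraries, and 0 to 11 without a library. At 12 weeks the 0 genes called for VPA became 1 with only the groups compared (0 to 1 without a library), and the 0 for running became 3 with a pseudocount of 0.1, 1 with no filter, 6 with a filter at 5 FPKM, 3 with small RNA genes left out and 2 with only the groups compared (0 to 37). Members called stayed at 0 in these 3 comparisons under every alternative run.

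Between control E15 and P5, only the groups compared gave 19 members higher in place of 8 and 8033 genes in place of 3038, and 6 to 8 members and 2271 to 2552 genes without a library. Between P5 and 12 weeks, leaving out a library gave 2 to 4 members higher, 5 to 9 lower and 1139 to 2288 genes. For the change of the VPA effect from E15 to P5, no filter gave 30 genes in place of 14 and only the groups compared 157 genes and 2 members lower (8 to 22 genes without a library). From P5 to 12 weeks, leaving out the running group gave 1 member higher and 431 genes in place of 57, and leaving out a library 0 to 1 member in each direction and 10 to 224 genes. Leaving out a library moved Apoe from -0.27 to 1.75 at E15 and from -1.65 to 0.37 in the change from E15 to P5, reversed without VPA E15 replicate 3, and from -0.0034 (reversed, without control P5 replicate 3) to 0.16 at P5. The cause was not tested, other than the smaller number of genes or libraries by construction. Depth is unknown, so at low levels such as those of Stard4 and Abcg1 replicate spread alone sets the precision.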

Other observations

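Genes around the members, on lists of sterol sensors, lipoproteins and sterol carriers, gave further values. Of 11 lipoprotein and receptor genes, Apod and Pltp rose with VPA at P5, where 0.9% of all genes did. Pltp, a phospholipid transfer protein, went from 3.60 ± 0.344 to 8.11 ± 0.974 FPKM (SD, n = 3; log2 fold change 0.98 ± 0.11, SE, adjusted p = 0.0136 in limma). Apod, a small lipid-binding apolipoprotein, went from 1.19 ± 0.17 to 3.38 ± 0.711 FPKM (0.99 ± 0.14, adjusted p = 0.0286). In adult controls both were far higher, Pltp at 119 ± 60.4 and Apod at 38.7 ± 17.1 FPKM. Both rose between P5 and 12 weeks, where 7.26% of all genes rose (4.56 ± 0.79, adjusted p = 0.000827, and 4.10 ± 0.45, adjusted p = 1.03e-05). Their levels after VPA at 12 weeks were 32.2 ± 11.3 and 20.4 ± 6.64 FPKM, with no call. Summed markers of endothelium were 6.82 to 9.26 FPKM after VPA at P5 against 2.29 to 4.72 in controls, beside the higher pericyte, fibroblast and microglia markers already given, and their part was not tested.

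From E15 to P5 in controls, Lcat, the enzyme that esterifies cholesterol on lipoproteins, rose from 0.713 ± 0.219 to 29.6 ± 2.65 FPKM (4.16 ± 0.44, adjusted p = 1.49e-06) and Clu, a lipid carrier also called apolipoprotein J, from 11.0 ± 0.732 to 131 ± 17.8 (3.45 ± 0.68, adjusted p = 0.00106), while Lpl, lipoprotein lipase, fell from 4.89 ± 1.20 to 1.45 ± 0.104 (-1.24 ± 0.24, adjusted p = 0.000996). Among LXR factors and targets, 2 of 7 rose at that step, where 14.4% of all genes did, Lpcat3 (0.79 ± 0.21, adjusted p = 0.0105) and Arl4c (0.62 ± 0.19, adjusted p = 0.028). Nr1h3, which encodes LXR alpha, rose from P5 to 12 weeks, where 7.26% of all genes rose, from 1.27 ± 0.0815 to 12.5 ± 2.42 FPKM (2.55 ± 0.31, adjusted p = 2.32e-05).

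Of 13 tested genes for oxysterols, storage and sterol carriers, 4 rose from E15 to P5, where 14.4% of all genes did, among them Cyp7b1, an oxysterol hydroxylase, from 2.88 ± 0.181 to 13.4 ± 1.52 FPKM (1.89 ± 0.22, adjusted p = 4.1e-06), and Stard5 (1.44 ± 0.45, adjusted p = 0.0287). Nceh1, a cholesterol ester hydrolase (1.26 ± 0.30, adjusted p = 0.0102), and Cyp27a1, a sterol hydroxylase (1.65 ± 0.34, adjusted p = 0.0034), rose from P5 to 12 weeks, where 7.26% of all genes rose. With VPA at P5, where 1.34% of all genes fell, Gramd1a, a carrier of sterol from the plasma membrane, fell from 133 ± 4.06 to 112 ± 2.56 FPKM (-0.25 ± 0.05, adjusted p = 0.0472). No gene of these lists passed for VPA at E15 or 12 weeks or for running in limma.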
